A study of Mus musculus with 2 samples.

Results

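DGCR8-independent and mirtron miRNAs were examined in small RNA libraries of wild-type (WT) mouse hearts at embryonic day 9.5 (E9.5). The names looked for were miR-320, miR-484, miR-877, miR-702 and miR-1224, matched without the species prefix, copy number and arm. They were found in 3 of the 620 precursor entries that the libraries held when their lists were paired by position. Of the 5 names, miR-320 and miR-877 were listed in both replicates, miR-1224 was listed in replicate 2 alone, and miR-484 and miR-702 had no entry in the tables used here. Both samples were of strain C57BL/6 and wild type, with no transgene, deletion or treatment named for them. Total RNA was taken from heart with TRIZOL, made into small RNA libraries with a TruSeq kit and sequenced on a HiSeq machine. They form 1 group with n = 2, so no condition was compared. The labels do not say whether the hearts came from separate litters or were pooled, and the spread between the replicates may therefore be technical.

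Most miRNAs are cut from long primary transcripts in the nucleus by the Microprocessor, in which the RNA-binding protein DGCR8 places the hairpin for the nuclease DROSHA. DICER then removes the loop in the cytoplasm, and 1 strand of the duplex is kept by an Argonaute protein while the other, the star strand, is mostly lost. A few hairpins enter this path after the DGCR8 step. miR-320 and miR-484 are known as short capped hairpins that transcription yields directly, and miR-877, miR-702 and miR-1224 are known as mirtrons, small introns that splicing and debranching release as hairpins. Both kinds still use DICER. Only WT hearts were sequenced here, so dependence on DGCR8 was not measured, and the grouping rests on background knowledge.

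The hairpins of both listed mirtrons are shown first because their ends are what the positions and the arm reads below refer to. The strands are given 5′ to 3′ as RNA, with the mature part and the star part, as the tables give them, in capitals and the loop in lower case.
miR-877 hairpin, both replicates: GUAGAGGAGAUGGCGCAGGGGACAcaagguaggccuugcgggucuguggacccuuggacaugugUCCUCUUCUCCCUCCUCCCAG
miR-1224 hairpin, replicate 2: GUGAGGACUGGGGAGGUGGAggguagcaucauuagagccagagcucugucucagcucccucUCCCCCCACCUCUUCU
In miR-877 and miR-1224 the mature part is the 5p arm at the left end, whereas in miR-320 it is the 3p arm. miR-877 begins with GU and ends with AG, the bases at the ends of most introns, a combination that 12 of the 620 listed hairpins showed (1.94%).

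The seed, bases 2 to 8 of the mature strand, is the part that pairs with target mRNAs. It is in capitals in the mature strands below. Those of miR-877 and miR-1224 are as listed for these hearts, and the last 3 lines, for the names with no entry, are RefSeq sequences (tables of build GRCm38.p6).
miR-877-5p: gUAGAGGAgauggcgcaggggaca
miR-1224-5p: gUGAGGACuggggaggugga
miR-484: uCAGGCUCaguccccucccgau
miR-702-5p: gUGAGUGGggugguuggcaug
miR-702-3p: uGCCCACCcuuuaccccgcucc
These 5 seeds and that of miR-320-3p all differed from each other, and none of them was found in another entry of the tables. Each seed was therefore represented in these libraries by its own entry or, for miR-484 and miR-702, by no entry. The 3 listed mature strands began with A or G, as did the mature strands of 25.3% and 9.19% of all entries, while 50.2% began with U.

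Summed over entries, the mature reads came to 4942257 in 568 entries of replicate 1 and 4806179 in 523 entries of replicate 2. Reads that fit more than 1 entry were counted at each, so these sums exceed the number of separate reads. A count of 3 reads, used as the floor, corresponded to 6.07e-05% and 6.24e-05% of these totals. The tissue label was checked with miR-1a and miR-133a of heart muscle, miR-126a of endothelium, and miR-143 and miR-145a of smooth muscle. All were listed in both replicates, with between 0.624% and 10.5% of the summed mature reads per entry. miR-1a and miR-133a had 2 entries each, which held nearly the same counts and were not added up. All reads given are raw counts, and shares are the percent of the summed mature reads of a library. Summed over the members, 3880 mature reads (0.0785%) came from replicate 1 and 4487 (0.0934%) from replicate 2. Nearly all of them were miR-320-3p.

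miR-320-3p was the most abundant member. Its mature strand was read 3620 times in replicate 1 and 4136 times in replicate 2. These were 0.07325% (Wilson 95% interval 0.0709 to 0.0757) and 0.08606% (0.0835 to 0.0887) of the mature reads, with a mean of 0.0797% ± 0.0091 (SD, n = 2). The entry stood at rank 107 by mean share of the 471 entries listed in both replicates, and at 110 and 103 in the single replicates. The mean shares of 11 other entries lay within 1 SD of that of miR-320-3p, so its place among them was not resolved. miR-877-5p was read 260 times in replicate 1 and 348 times in replicate 2, 0.00526% (0.00466 to 0.00594) and 0.00724% (0.00652 to 0.00804) of the mature reads. Its mean was 0.00625% ± 0.0014 (SD, n = 2) and its rank 248, and 22 other entries lay within 1 SD. The mature reads of miR-320-3p exceeded those of miR-877-5p 13.9-fold in replicate 1 and 11.9-fold in replicate 2 (12.9 ± 1.44, SD). Over all reads of the precursor, star reads included, the ratio was 7.13 and 6.17 (6.65 ± 0.675, SD), and miR-877 then had a mean share of 0.0118% and rank 222. The ranges of these members did not overlap. miR-1224-5p was listed with 3 mature reads in replicate 2, which is the floor, and its level could not be set apart from that of an entry with no reads.

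The hairpins differed most in their arms. The plot of reads by arm shows miR-320 with reads almost wholly on the 3p arm and miR-877 with reads divided between both arms. The star arm of miR-320 held 1 read in replicate 1 and 0 in replicate 2, and its loop held 0 in both. The star share of the arm reads was 0.0276% (exact 95% interval 0.000699 to 0.154) of 3621 reads in replicate 1. In replicate 2 it was 0 of 4136 reads, for which the floor of 3 reads is 0.0725% and the exact 95% upper limit 0.0891%. miR-877 had 246 star reads against 260 mature reads in replicate 1 and 321 against 348 in replicate 2, with 2 and 1 loop reads. Its star share was 48.6% (44.2 to 53.1) and 48.0% (44.1 to 51.8), with a mean of 48.3% ± 0.45 (SD, n = 2). Both intervals contain 50%, so neither replicate resolved which of the arms of miR-877 was read more often. Intervals and floors cover counting error only, since reads were not counted by molecular identifiers.

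**Figure D1:**
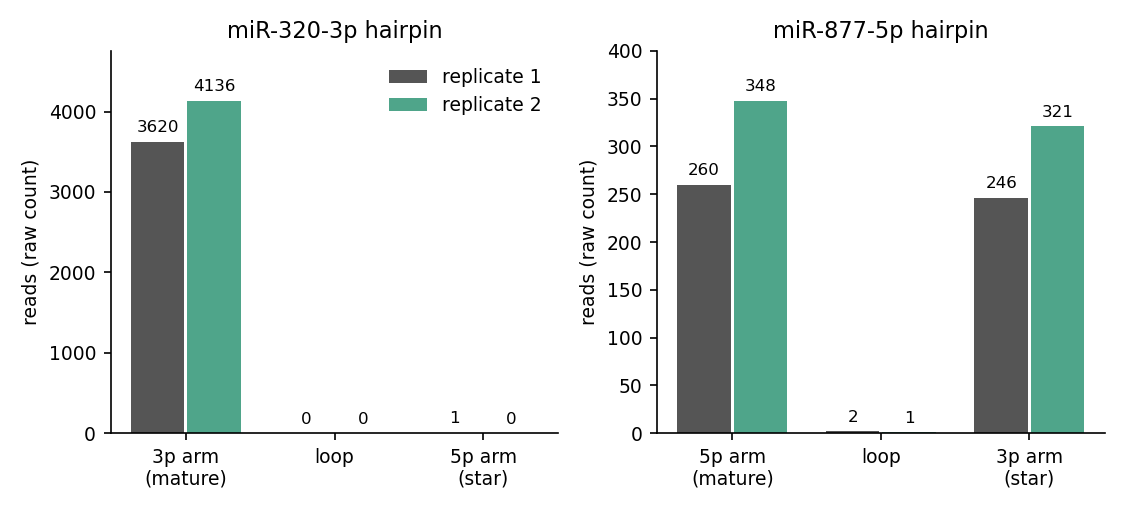
Raw reads of the miR-320 hairpin (left) and the miR-877 hairpin (right) on the mature arm, the loop and the star arm, with 1 bar per replicate and the count above it. In miR-320 the 3p arm held 3620 and 4136 reads and the star arm 1 and 0, while in miR-877 the 5p arm held 260 and 348 and the 3p arm 246 and 321.

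With 1 star read in all, the arm shares of miR-320 could not be tested between the replicates. For miR-877 a two-sided Fisher's exact test of star against mature reads between the replicates gave p = 0.860 (n = 2 libraries), so a difference was not detected. The median star share over all entries was 0.288% in replicate 1 and 0.437% in replicate 2. A star share as high as that of miR-877 or higher was found in 16 of 568 entries (2.82%) in replicate 1 and 17 of 523 (3.25%) in replicate 2, so a near-even split of arms was uncommon in these hearts. For comparison, miR-191, miR-425, miR-423, miR-186 and miR-361, known as ordinary DGCR8 substrates, had 6 entries with star shares from 0% to 19.9% in replicate 1 and from 0% to 21.2% in replicate 2. The 0% came from a miR-186-5p hairpin that overlaps another with the same mature reads and star shares of 0.102% and 0.110%. Such overlapping hairpins are also counted in the median over all entries.

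The ends of the listed miR-877 strands were set beside their RefSeq sequences. The 5p strand had the same 5′ end as RefSeq miR-877-5p, hence the same seed, and was 4 nt longer at its 3′ end. A 3′ end at least 4 nt beyond RefSeq was found in 8 of the 505 entries with a RefSeq sequence on the hairpin (1.58%). The listed 3p strand started 2 nt later than RefSeq miR-877-3p and ended 1 nt later, which put other bases at positions 2 to 8, as shown in capitals.
miR-877 star part as listed: uCCUCUUCucccuccucccag
RefSeq miR-877-3p: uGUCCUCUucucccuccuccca
The tables give 1 consensus strand per arm, so the share of reads with either start is not known here. The 21-nt star part matched the mouse genome at 2 positions, chr17:36097675-36097695 on the minus strand and chr11:55873640-55873660 on the plus strand of build mm9, whereas the mature part had 1 match. Reads from the second position could not be told apart from those of the miR-877 hairpin. The listed miR-1224-5p strand had the 5′ end of RefSeq miR-1224-5p and was 1 nt shorter at its 3′ end.

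The mirtron hairpins were next placed on the gene annotation. The miR-877 hairpin, at chr17:36097675-36097759 on the minus strand (mm9), filled intron 12 of Abcf1 from its first to its last base, 85 of 85 nt, in transcript Abcf1-001 of GENCODE vM1. Abcf1 encodes an ATP-binding cassette protein with a role in translation. The listed miR-1224 hairpin, at chr16:20604525-20604601 on the plus strand, began at the first base of the 85-nt intron 18 of Vwa5b2 (transcript Vwa5b2-004). It ended 8 nt before the last base of that intron. It had 0 star reads, so no reads marked its star part or its 3′ end. RefSeq miR-1224-3p had 2 matches in mm9, of which chr16:20604589-20604609 on the plus strand ended at the last base of the intron.

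**Figure D2:**
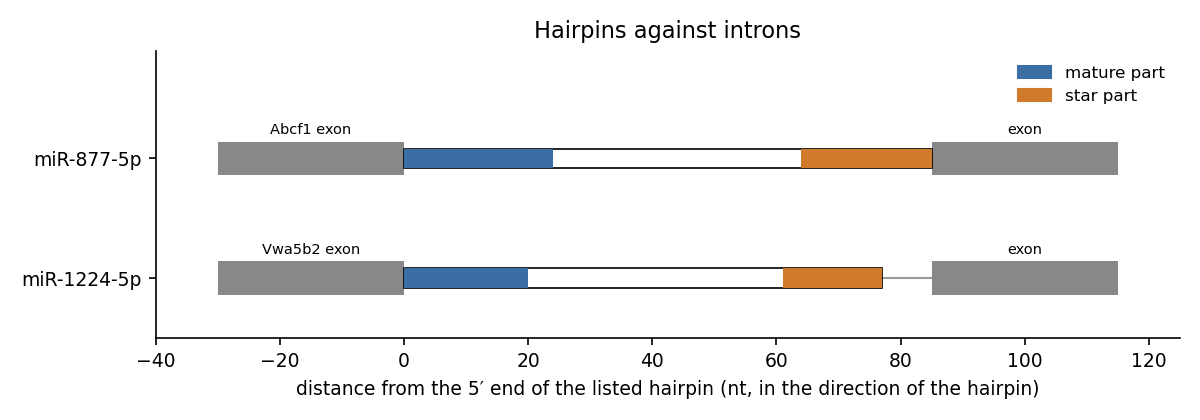
Positions of both listed mirtron hairpins, with distance in nt from the 5′ end of each hairpin on the horizontal axis, mature and star parts coloured and the ends of the flanking exons as grey blocks. miR-877 spans its intron with distances of 0 and 0 nt, and the listed miR-1224 hairpin, without star reads, stops 8 nt short of the 3′ end.

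Such a fit to an intron was rare among the entries. Of the 620 entries, 325 (52.4%) lay in an intron on their own strand, whose median length was 3878 nt. Both ends of the hairpin lay within 5 nt of the intron ends in 8 entries (1.29%), of which miR-877 was 1. With ends allowed within 10 nt there were 10 such entries and miR-1224 was among them. The 3′ end alone lay within 5 nt of the intron end in 58 further entries. Tailed mirtrons are known to have this arrangement, but intron length was not limited here. Mature reads of the 8 entries came to 2214 (0.0448%) in the first library and 2323 (0.0483%) in the second, and those of the 58 to 2008 (0.0406%) and 2156 (0.0449%). Among the 58, miR-412-5p alone held 1215 and 1311 mature reads, and its hairpin ran 3 nt past the end of a 1066-nt intron of Mirg. The median over the listed entries of the 58 was 10 and 11.5 mature reads.

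Within the 8 entries, miR-877 was second by mature reads. First was miR-1981-5p, in an 82-nt intron of Mosc2, with 1785 and 1777 mature reads and 246 and 261 star reads, a star share of 12.1% and 12.8%. The others were lower. miR-7068-3p in Cherp had 91 and 110 mature reads, miR-7091-3p in Dnase1l1 had 37 and 45, and miR-6958-3p in Fam116b had 27 and 32. miR-6970-3p had 5 and 11 reads at an intron of Skiv2l-ps1 and 5 in replicate 1 at an intron of Skiv2l, and miR-7082-3p in Raver1 had 4 in replicate 1. miR-877-5p and miR-1981-5p were the only ones of the 8 listed with the 5p arm as the mature part. miR-877 had the highest star share and the highest score of the 8 in both replicates.

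The miRDeep2 score is a log-odds value that weighs how far the reads and the fold of a hairpin look like DICER products, and its known ingredients include reads on the star strand. miR-877 scored 250 in replicate 1 and 330 in replicate 2, placing it at rank 156 of 568 and 149 of 523. miR-320 scored 1800 in replicate 1 and 2.6 in replicate 2, rank 84 and rank 260, although its mature reads placed it at 111 and 104. The entry thus held more mature reads in the replicate in which it scored lower. Its libraries also differed by 1 star read, and the part of that read in the score was not tested. miR-1224 scored -2 in replicate 2, at rank 451 of 523. The median over all entries was 2.5 in replicate 1 and 2.6 in replicate 2.

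The plot of score against total reads shows 2 bands. In the upper band the score followed the reads, and the median over all entries with star reads was 0.5 score units per read in replicate 1 and 0.501 in replicate 2. miR-877 lay there with 0.492 and 0.493 per read, and so did miR-320 in replicate 1 with 0.497. No entry without star reads, 235 in replicate 1 and 202 in replicate 2, scored above 3. miR-320 in replicate 2 was one of these, 18th among them by mature reads, and 37 of them had 1000 mature reads or more. Star reads were not followed by a high score in every entry. Of the entries with star reads and at least 100 reads in total, 43 of 246 (17.5%) in replicate 1 and 43 of 239 (18%) in replicate 2 scored under 10, miR-1981-5p with -1.8 in both replicates among them.

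**Figure D3:**
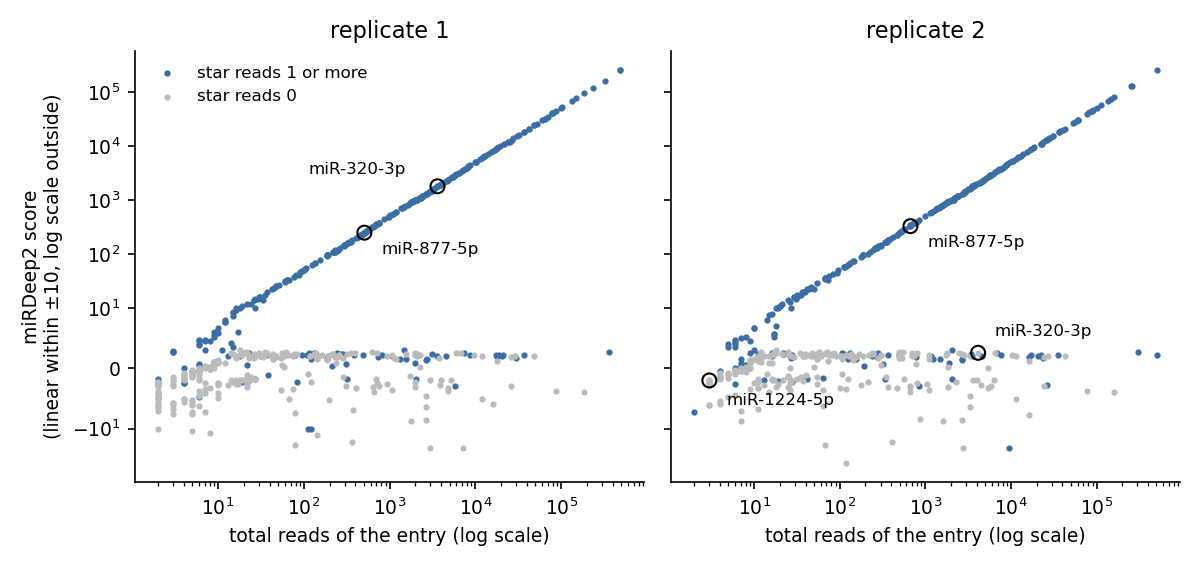
Score of each entry against its total reads in replicate 1 (left) and replicate 2 (right), with a log scale for reads, a score axis that is linear within 10 of 0 and log outside, entries with star reads in blue and without in grey, and members circled. miR-877 lies on the rising band in both panels (250 and 330), while miR-320 lies on it in replicate 1 (1800) and on the flat band in replicate 2 (2.6).

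The change of band seen for miR-320 was looked for in other entries with star reads in 1 replicate alone. Star reads were present in exactly 1 replicate, with the same arm as mature part, in 47 entries, and 32 of these had 1 star read. The score was higher in the replicate with star reads in 38 of the 47. Of these, 16 had 100 or more mature reads in each replicate, and 12 of the 16 scored higher with star reads. Their median score was 220 with them and 2.4 without. miR-320 had the second largest difference of the 16, after miR-101a-3p. The latter had 5908 and 4226 mature reads, 0 and 1 star reads and scores of 2.5 and 2100. Entries with star reads in both replicates were not searched. Among these, miR-1a-2-3p had 492871 and 503920 mature reads and 4 star reads in each replicate, yet scored 2.5e+05 and 2.3. A change of band was thus also seen without a change in star reads.

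The mirtron hairpins were long. miR-877 was 85 nt long with 40 nt between its arms. miR-1224, as listed and without star reads, was 77 nt long with 41 nt between them. The medians over all entries were 60 nt and 16 nt. A hairpin as long as that of miR-877 or longer was found in 12 of the 620. GC content was 61.2% for miR-877 and 59.7% for miR-1224, against a median of 49.2%. RNAfold gave a minimum free energy of -36.5 kcal/mol for miR-877 and -39.3 kcal/mol for miR-1224, or -0.429 and -0.510 per nt. The randfold p-value of the fold was marked as significant for miR-320 in both replicates and for miR-1224 in replicate 2. It was marked as not significant for miR-877 in both, as for 21.8% of the entries in replicate 1 and 22.9% in replicate 2. miR-877 thus scored 250 and 330 without the randfold mark.

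**Figure D4:**
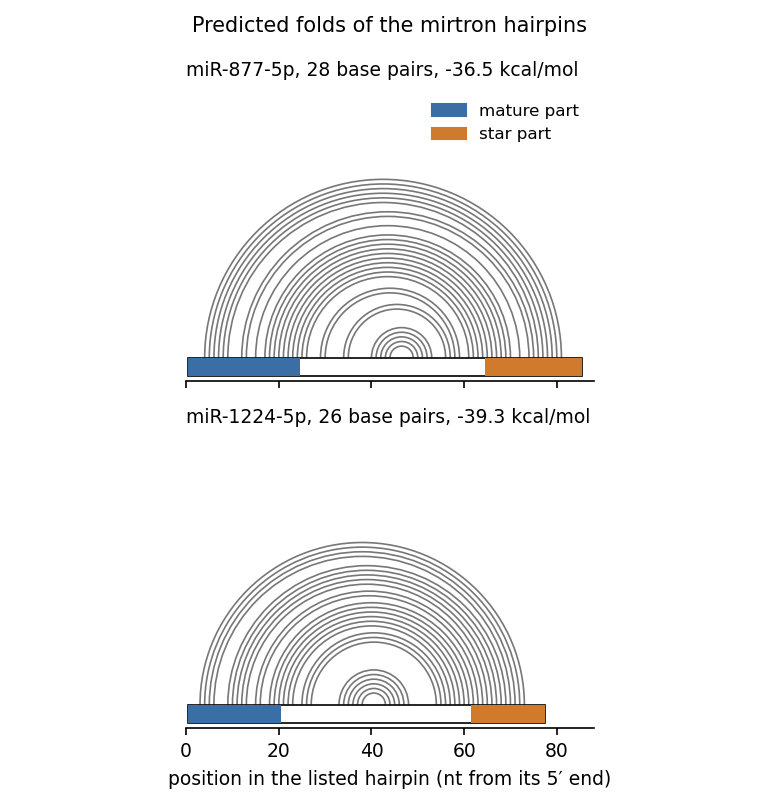
Predicted folds of the mirtron hairpins, with position in nt from the 5′ end on the horizontal axis, an arc for each base pair and the mature and star parts coloured. miR-877 has 28 pairs in 85 nt with 3 and 4 unpaired bases at its ends, and miR-1224 as listed has 26 pairs in 77 nt with 2 and 4.

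The replicates were compared entry by entry with an exact two-sided binomial test of the mature reads against the library totals, adjusted over the 431 entries with at least 20 reads in sum. It compares 2 libraries, not conditions. Both members tested had the higher share in replicate 2. The log2 ratio of replicate 2 to replicate 1 was 0.23 for miR-320-3p (adjusted p = 7.7e-12) and 0.46 for miR-877-5p (adjusted p = 0.000351). Of all entries tested, 41.1% passed, and 27.6% passed with the higher share in replicate 2, so that passing was common. The median absolute log2 ratio was 0.19. A ratio as large as that of miR-320-3p in either direction was found in 41.1% of the entries tested and one as large as that of miR-877-5p in 13.7%. The spread between the libraries was far above counting error (chi-square 40020.8 with 430 degrees of freedom, biological coefficient of variation 15.26%). Where edgeR's exact negative binomial test took that spread into account, 3 of 431 entries passed. The adjusted p of that test was 1 for both miR-320-3p and miR-877-5p. Its dispersion came from the same 2 libraries that it compared, so it could not decide whether either member differed between them.

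**Figure D5:**
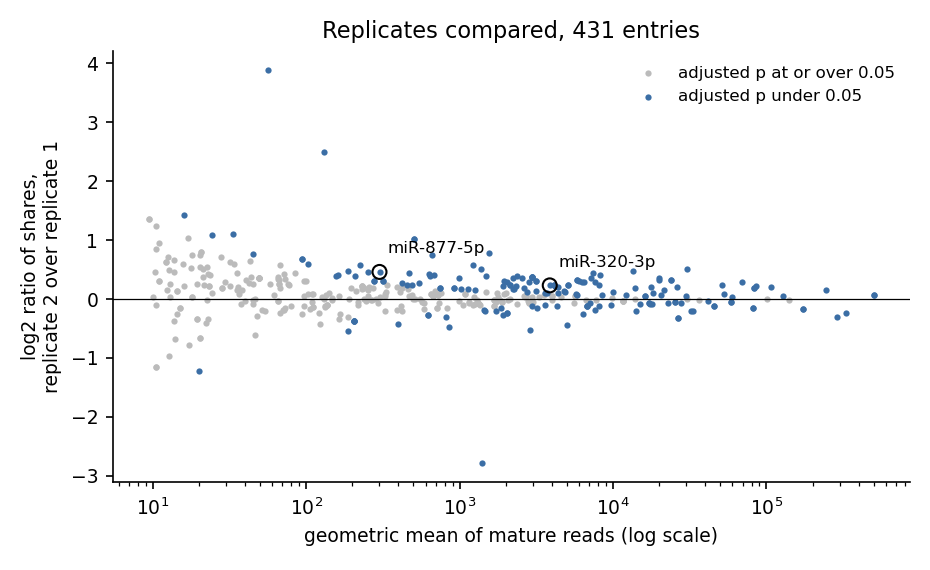
log2 ratio of the share of mature reads, replicate 2 over replicate 1, against the geometric mean of the mature reads (log scale) for 431 entries, with entries at adjusted p under 0.05 by the exact binomial test in blue and the members circled. miR-320-3p (0.23) and miR-877-5p (0.46) both lie above 0, within the cloud of other entries.

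miR-484 and miR-702 had no entry in either table. The RefSeq sequence of miR-484, printed above, matched mm9 once, at chr16:14159723-14159744 on the plus strand. This lay in no annotated gene once genes of small RNA types, such as miRNA and snoRNA, were left out. It was at -3645 nt from the start of Nde1 on the same strand and 356 nt from the start of 4921513D23Rik on the opposite strand. The RefSeq strands of miR-702 both matched 1 intron, intron 13 of Plod3 (transcript Plod3-001, 102 nt), on the plus strand of chromosome 5. Together they spanned chr5:137467312-137467411, from the first base of the intron to 2 nt before its last. Plod3 encodes a lysyl hydroxylase of collagen. A name without an entry was not taken as 0 reads, since absence from the tables is not a count.

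Other precursors known or proposed to leave the usual path at some step were all listed, with 5 of 5 names in both replicates. Of the 5, 1 passed the exact binomial test between the replicates, with the higher share in replicate 2, where 27.6% of all entries tested did so. miR-1839-5p, from a small nucleolar RNA, had 1317 and 1205 mature reads, 82 and 96 star reads and scores of 700 and 650. miR-668-3p, proposed to be DGCR8-independent, had 219 and 294 mature reads, 6 and 7 star reads and scores of 110 and 150, and was the name that passed (log2 ratio 0.47, adjusted p = 0.000988 by the exact binomial test). With edgeR's exact negative binomial test its adjusted p was 1. Both lay below miR-320-3p and above miR-1224-5p in mature reads. miR-451a, whose hairpin is cut by AGO2 in place of DICER, had 128 and 127 mature reads with 2 and 4 star reads, and scored 2.6 in both. miR-344-3p, known as a capped hairpin like miR-320, had 2 entries with the same 62 and 72 mature reads and 0 star reads, scoring 2.6 or 2.7. Having no star read was common, in 235 of 568 entries of replicate 1 and 202 of 523 of replicate 2, overlapping hairpins included. miR-1982-3p, a tailed mirtron, had 9 and 12 mature reads, 2 and 3 star reads and scores of 3 and 8.9, and its hairpin ended at the last base of a 74-nt intron of Oaz1 and began 11 nt after its first.

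By distance in log2 share over the 2 replicates, the entries nearest to miR-320-3p were miR-23a-3p, with 3664 and 3813 mature reads, and a let-7c-5p entry, with 3849 and 4424. The distances were 0.119 and 0.131. At this like level miR-23a-3p had 8 star reads in each replicate and scores of 1800 and 1900. The let-7c-5p entry, on chromosome 15, had 0 star reads and scored -2.7 in both. A second let-7c-5p entry, on chromosome 16, listed nearly the same mature reads, 3864 and 4441. The star reads and score given for let-7c-5p therefore belong to 1 of 2 hairpins. The entries nearest to miR-877-5p were both entries of miR-1943-5p, at chr15:79205668-79205722 and chr15:79205701-79205777 on the minus strand. These hairpins overlap and list the same 289 and 348 mature reads (distance 0.153), so they are not separate neighbours. One had 6 and 14 star reads and scores of 150 and 180, and the other had 0 star reads and scored -1.4 in both, while miR-877 had 246 and 321 star reads. These likenesses rest on 2 libraries of 1 group and describe levels only.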

How the data were processed

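Small RNA of 2 E9.5 WT mouse heart samples was analysed. Per the labels, the authors ran miRDeep2 on filtered reads against build mm9; its version, the miRBase release and trimming were not given in the sources used here. The deposited tables give raw counts of total, mature, loop and star reads for each precursor, without normalization, and the deposited miRDeep2 score, which is rounded. Mature reads summed over entries were 4942257 and 4806179, with reads that fit more than 1 entry counted at each. Entries were paired across replicates at 50% overlap on the same strand and named by the arm with the reads. Hairpins were placed on NCBIM37 with GENCODE vM1, leaving out genes of small RNA types such as miRNA and snoRNA (Python 3.11.15, RNAfold 2.7.2). Replicates were compared with an exact binomial test (scipy 1.17.1), Benjamini-Hochberg adjustment and a threshold of 0.05. The procedure was first run on simulated data with counting error alone. Those data held no other spread between libraries, so its calls under the spread seen here were not tested. edgeR 4.0.16 and DESeq2 1.42.0 gave other scalings. Named were all members, a pathway list, seed sharers, the 2 nearest entries by level, and entries that fill an intron within 5 nt, with a comparison list as a range. Members and lists were chosen with earlier results of these data known. The hairpin sequence of miR-320 is not reported here.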

Additional observations from a re-analysis of the deposited data

How the results depend on the processing

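No paired analysis was possible because all samples belong to 1 group. Counting each mature sequence once moved the share of miR-320-3p from 0.0797% to 0.109% and its rank from 107 to 80, and the share of miR-877-5p from 0.00625% to 0.00856% and its rank from 248 to 196. This alternative has a smaller total and fewer entries by construction. With all reads of the precursor in place of mature reads, miR-877-5p rose to 0.0118% and rank 222, since its star reads then count. The exact negative binomial test with the common dispersion, chosen after seeing the data, called 3 entries in place of 177 (10 at an unadjusted p under 0.05), and the log2 ratios of 0.23 for miR-320-3p and 0.46 for miR-877-5p no longer passed. Its dispersion comes from the same 2 libraries. With DESeq2 size factors, 78 of 176 entries that passed were higher in replicate 2, against 119 of 177 with library totals (86 of 178 with TMM), and both members stayed higher there. With n = 2, leaving out a replicate gives the value of the other, and says nothing on stability. The score of miR-320 was 2.6 without replicate 1 and 1800 without replicate 2, and miR-1224-5p had no entry without replicate 2. With 2 samples of 1 group, and with reads near the floor for miR-1224-5p, differences smaller than the replicate spread could not be resolved.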
